A study of Mus musculus with 15 samples.

Results

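The Nrf2 antioxidant response was followed in mouse dental mesenchymal cells (mDMCs) through 10 genes: Nfe2l2, Keap1, Gclc, Gclm, Slc7a11, Gsta4, Txnrd1, Srxn1, Hmox1 and Nqo1. They were chosen by name as the factor Nrf2, its inhibitor and widely used target genes, with earlier results of these data known. All 10 have a row among the 12089 transcripts of the expression table, of which 11973 were matched to 11960 genes. RNA-seq of total RNA was available for freshly isolated mDMCs (0 h, 3 libraries) and for mDMCs cultured for 12 h (2 libraries), 24 h (3), 36 h (3) and 48 h (3) in DMEM with fetal bovine serum (FBS), together with 1 library of dental mesenchymal tissue. All libraries came from mandibular first molars of E14.5 embryos of the ICR strain, for which the labels name no transgene or targeted allele, and the cells had been released from the mesenchyme with trypsin, so each 0 h library had been through dissociation while the tissue had not. The study's methods give sequencing in duplicate or triplicate and, for its statistics, at least 3 independent experiments. Neither statement says whether the libraries of a group came from separate litters or cultures. The p-values thus measure the spread between these libraries, which may be technical.

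Nrf2, encoded by Nfe2l2, is a leucine zipper transcription factor that pairs with small Maf proteins and binds the antioxidant response element (ARE) of its target genes. In unstressed cells Keap1 holds Nrf2 in the cytoplasm and delivers it to a ubiquitin ligase for degradation. Electrophiles and oxidants modify cysteines of Keap1, Nrf2 then accumulates without a need for new Nfe2l2 transcription, and genes for glutathione synthesis, thioredoxin reduction, quinone reduction and haem breakdown are induced. Several of these targets are also regulated by other factors, among them Bach1 at Hmox1 and Atf4 at Slc7a11. Textbook knowledge of the pathway comes mainly from liver and from cultured fibroblasts rather than from the tooth germ.

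The deposited values are whole-number expression scores. They are not read counts, since every library has a median of 721 and a highest score of 127101, and at 71.9% of ranks the libraries hold the same score. The number of reads per library is therefore unknown, no counting interval can be given, and scores compare 1 gene between libraries but not 1 gene with another. Of 8 dental mesenchyme markers, 8 had a row and their summed score was 122858 to 146242 at 0 h and 129255 to 133120 at 48 h. Of these markers 5 were lower and 1 higher at 48 h (limma, adjusted p below 0.05), against 34% and 37.1% of all transcripts and with a median log2 change of -0.69, and 6 or 7 were lower without library 1 or 3 of 24 h. The like sums rest on Vim, which rose by 1.18, while Pdgfra fell by 2.69 and Pax9 fell by 2.37. The summed score of 9 erythroid markers was 98239 to 151173 at 0 h and 52 to 168 at 48 h, with Slc4a1 and Hbb-bh1 listed at 0 in every 48 h library. The 8 endothelial markers summed to 9228 to 10902 at 0 h and 493 to 861 at 48 h, the 6 macrophage markers with a row to 1417 to 2217 and 528 to 871, and the 7 epithelial markers to 1450 to 13358 and 357 to 1205, where library 1 of 0 h held the 13358. The summed marker scores of these other cell types were thus lower at 48 h, and the part of such cells in the changes below was not tested. In such bulk RNA fewer cells of a type and less RNA per cell cannot be told apart.

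The promoter sequences are shown first because Nrf2 acts through the ARE of its target genes. RefSeq windows of 300 bases (GRCm38.p6, from 250 bases before to 50 bases after a start site) matched 7 genes with 9 windows, without Gclc, Gsta4 and Hmox1. The ARE core was searched as TGACNNNGC on both strands, a wider form of it as TGANNNNGC, and AP-1 sites, which can share letters with both, as TGANTCA. The core was found in 4 of the 9 windows, and in 4071 of 32851 windows of all genes, which is 12.4%. The wider form was found in 7 of the 9 windows and in 41.3% of all windows, and the AP-1 letters in 7.81% of all windows. In the 4 sequences, written 5′ to 3′ on the gene's strand, capitals mark matches to TGACNNNGC or TGANTCA.
Nfe2l2, chr2:75704614-75704913 (minus strand): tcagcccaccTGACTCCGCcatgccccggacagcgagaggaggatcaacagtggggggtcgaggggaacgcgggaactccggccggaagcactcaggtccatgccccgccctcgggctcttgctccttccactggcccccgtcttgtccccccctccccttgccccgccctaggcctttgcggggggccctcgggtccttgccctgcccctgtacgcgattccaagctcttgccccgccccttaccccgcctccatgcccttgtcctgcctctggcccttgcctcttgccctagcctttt
Gclm, chr3:122245307-122245606 (plus strand): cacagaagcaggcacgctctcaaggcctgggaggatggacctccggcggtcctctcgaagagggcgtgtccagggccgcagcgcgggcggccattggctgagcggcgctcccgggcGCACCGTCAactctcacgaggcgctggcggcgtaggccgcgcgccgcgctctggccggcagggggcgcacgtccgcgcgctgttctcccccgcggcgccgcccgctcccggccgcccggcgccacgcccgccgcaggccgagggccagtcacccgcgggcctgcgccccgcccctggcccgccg
Txnrd1, chr10:82858956-82859255 (plus strand): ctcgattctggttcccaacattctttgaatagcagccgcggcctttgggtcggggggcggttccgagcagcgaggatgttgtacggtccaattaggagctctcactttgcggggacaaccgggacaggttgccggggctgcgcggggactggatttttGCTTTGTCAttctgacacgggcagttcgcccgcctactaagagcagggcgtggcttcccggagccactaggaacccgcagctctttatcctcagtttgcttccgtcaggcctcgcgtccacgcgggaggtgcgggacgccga
Srxn1, chr2:152105274-152105573 (plus strand): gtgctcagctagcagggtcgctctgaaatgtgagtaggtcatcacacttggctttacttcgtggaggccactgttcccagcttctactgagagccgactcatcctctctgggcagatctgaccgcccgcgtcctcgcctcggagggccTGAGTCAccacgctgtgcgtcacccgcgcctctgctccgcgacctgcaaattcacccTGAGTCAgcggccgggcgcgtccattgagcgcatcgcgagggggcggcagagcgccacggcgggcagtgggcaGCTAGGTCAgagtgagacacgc
The core began 240 bases upstream of the start in Nfe2l2, 134 bases upstream in Gclm and 92 bases upstream in Txnrd1, and 28 bases downstream in Srxn1. Srxn1 also held the AP-1 letters 102 and 45 bases upstream, apart from its match to TGACNNNGC, but the letters at 45 bases, with the 2 bases that follow them, also match the wider form. The Txnrd1 window shown holds the start of the transcript listed in the table. Txnrd1 has 2 further windows, and neither these nor the windows of Slc7a11, Nqo1 and Keap1 held TGACNNNGC. The wider form, which includes every match to the core, was found 4 times in the Srxn1 window, 3 times in that of Slc7a11, not in that of Nqo1, in 2 of the 3 windows of Txnrd1, and 1 time each in those of Nfe2l2, Gclm and Keap1. The Keap1 window begins 5′ of the transcript listed in the table and does not reach it. A match is a description of letters and not a measured binding site.

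Most of the 10 genes were higher in cultured than in freshly isolated mDMCs from the first time point on. At 12 h, 7 genes passed the test as higher and 0 as lower (limma on log2(score + 1), Benjamini-Hochberg adjusted p below 0.05 over 12079 transcripts), namely Nfe2l2, Gclc, Gclm, Txnrd1, Srxn1, Hmox1 and Nqo1. The same test called 29.9% of all transcripts higher and 28.3% lower at 12 h. At 24 h the 10 genes gave 7 higher and 1 lower against 35% and 31.8% of all transcripts, at 36 h 6 higher and 1 lower against 36% and 34%, and at 48 h 7 higher and 0 lower against 37.1% and 34%. At an unadjusted p below 0.05 there were also 0 lower at 12 h and at 48 h, where 30.2% and 35.1% of all transcripts were lower. The genes called higher were the 7 of 12 h at every time, except that Gclm was not called at 36 h, and the gene called lower at 24 h and 36 h was Gsta4. The median log2 change of the 10 genes from 0 h was 1.14 after 12 h, 1.13 after 24 h, 1.03 after 36 h and 1.19 after 48 h, where the median of all transcripts tested was between 0.02 and 0.03. All 4 comparisons use the same 3 libraries of 0 h, and the 10 genes were chosen with earlier results of these data known. By the fold rule of the study's methods (unadjusted p below 0.05 and more than 2-fold) 7 of the 10 genes were higher at 12, 24 and 48 h, 5 were higher at 36 h, and 0 were lower at any of these. Of all transcripts, that rule called 12.2%, 13.8%, 15.6% and 16.2% higher and 12.1%, 14.2%, 15.6% and 15.9% lower in the order of the times. Every cultured library lay above every 0 h library for 7 genes at 12 h and 24 h and for 6 at 36 h and 48 h, and this held for 33.7%, 35.8%, 38.2% and 37.3% of all transcripts in the same order. The reverse, with all cultured libraries below 0 h, was seen for Gsta4 up to 36 h, and for 32.6%, 33.1% and 36.6% of all transcripts in the 3 comparisons.

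**Figure D1:**
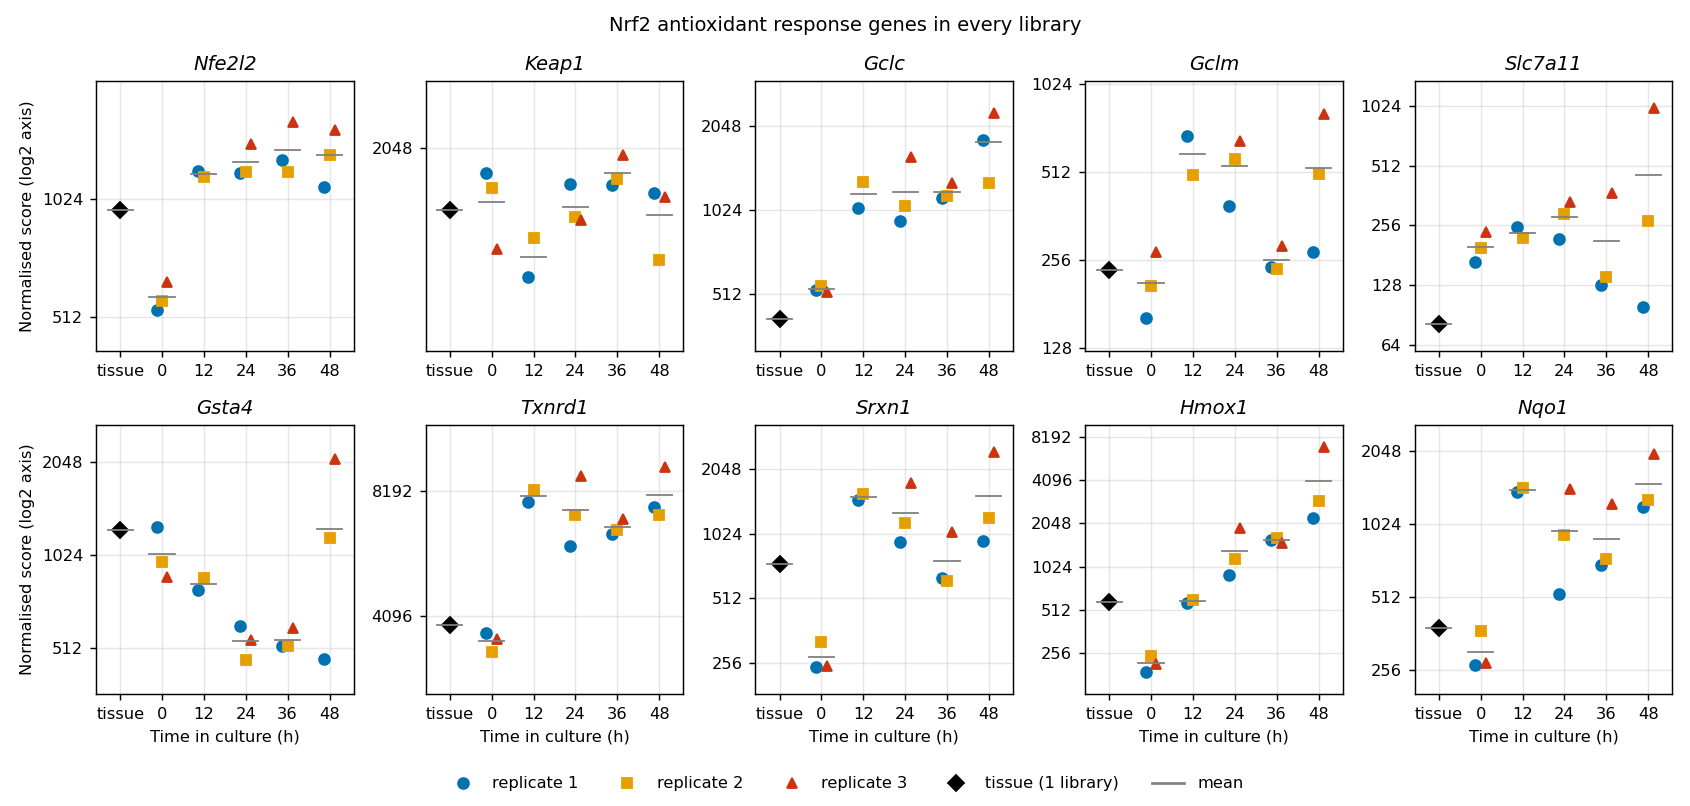
Expression score of each of the 10 genes (y axis, log scale) in freshly isolated mDMCs, in mDMCs cultured for 12 to 48 h and in dental mesenchymal tissue (x axis), with 1 point per library and a bar at the mean of each time point. Hmox1 climbed from 190 to 245 at 0 h to 2235 to 6934 after 48 h, Keap1 stayed between 1447 and 2008 in all mDMC libraries, and Slc7a11 and Gsta4 spread widely after 48 h.

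Of the 2 regulators, the gene of the transcription factor rose and that of its inhibitor gave no call. Nfe2l2 (ENSMUST00000102672, GRCm38 chr2:75675513-75704641, minus strand, 5 exons) had scores of 532, 563 and 628 at 0 h, 1205 and 1166 after 12 h, 1194, 1200 and 1416 after 24 h, 1286, 1198 and 1611 after 36 h and 1100, 1326 and 1537 after 48 h. Each cultured library lay above each 0 h library, and the cultured time points overlapped one another. The change from 0 h was 1.05 on the log2 scale after 12 h (SE 0.15, limma, Benjamini-Hochberg adjusted p = 7.26e-05) and 1.19 after 48 h (SE 0.14, adjusted p = 4.75e-06), with 1.14 after 24 h and 1.24 after 36 h in between. From 12 h to 48 h it was 0.14 (95% confidence interval -0.19 to 0.47).

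Keap1 (ENSMUST00000164812, chr9:21230067-21238813, minus strand, 5 exons), the substrate adaptor that targets Nrf2 for degradation, had scores of 1911, 1836 and 1562 at 0 h, 1447 and 1605 after 12 h and 1813, 1514 and 1796 after 48 h. Its lowest score in any mDMC library was 1447 and its highest 2008, in library 3 of 36 h. The 0 h scores overlapped those of every other time. The log2 change from 0 h was -0.21 after 12 h, -0.01 after 24 h, 0.12 after 36 h and -0.05 after 48 h, and the smallest adjusted p was 0.112 (limma, Benjamini-Hochberg). Without library 3 of 0 h, the lowest of the 0 h libraries, Keap1 was called lower at 12 h, with a change of -0.30 (adjusted p = 0.0266). At 48 h the 95% confidence interval was -0.26 to 0.16, the narrowest of the 10 genes.

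Gclc and Gclm encode the catalytic and the modifier subunit of glutamate-cysteine ligase, the rate-limiting enzyme of glutathione synthesis. Gclc (ENSMUST00000034905, chr9:77754535-77794485, plus strand, 16 exons) had scores of 529, 549 and 522 at 0 h, 1045 and 1286 after 12 h, 935, 1058 and 1584 after 24 h, 1127, 1150 and 1277 after 36 h and 1821, 1280 and 2264 after 48 h. No cultured library overlapped the 0 h libraries. The log2 change from 0 h was 1.12 after 12 h (SE 0.23, limma, Benjamini-Hochberg adjusted p = 0.00104), 1.12 after 24 h, 1.15 after 36 h and 1.71 after 48 h (SE 0.20, adjusted p = 7.51e-06). The step from 12 h to 48 h was 0.59 with an adjusted p of 0.0551 and did not pass the test.

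Gclm (ENSMUST00000029769, chr3:122245557-122270732, plus strand, 7 exons) had scores of 163, 209 and 272 at 0 h, 681 and 498 after 12 h, 393, 568 and 650 after 24 h, 242, 239 and 287 after 36 h and 272, 503 and 804 after 48 h. It was thus above the 0 h libraries after 12 h and 24 h, overlapping them after 36 h, and after 48 h it ranged from a score also seen at 0 h to the highest of all mDMC libraries. The log2 change from 0 h was 1.47 after 12 h (SE 0.37, limma, Benjamini-Hochberg adjusted p = 0.0041), 1.32 after 24 h, 0.28 after 36 h (adjusted p = 0.462) and 1.19 after 48 h (SE 0.33, adjusted p = 0.00565). From 24 h to 36 h Gclm fell by 1.04 on the log2 scale (SE 0.33, adjusted p = 0.0422), with every 36 h library below every 24 h library. At that step 9.64% of all transcripts were called lower and 25.1% had no overlap in that direction. That call was lost in 7 of the 14 fits that left out a single library, which were those without library 2 of 0 h, 2 or 3 of 24 h, any of 36 h or 2 of 48 h, and the adjusted p then reached 0.149. Gclc had a log2 change of 0.03 over the same step (95% confidence interval -0.42 to 0.47), and the difference between the genes was not tested.

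Slc7a11 and Gsta4 gave the widest spread. Slc7a11 (ENSMUST00000029297, chr3:50364938-50443611, minus strand, 12 exons) encodes the light chain of the cystine and glutamate exchanger that brings in cystine for glutathione synthesis. Its scores were 167, 196 and 237 at 0 h, 250 and 220 after 12 h, 218, 292 and 334 after 24 h, 128, 141 and 372 after 36 h and 99, 268 and 1003 after 48 h. The 0 h scores overlapped those of every other time, and at 48 h both the lowest and the highest score of all mDMC libraries were found. The log2 change after 48 h was 0.59 (SE 0.63, 95% confidence interval -0.77 to 1.96, limma, Benjamini-Hochberg adjusted p = 0.415), with 0.24 after 12 h, 0.48 after 24 h and -0.07 after 36 h, and none passed the test. Without library 3 of 48 h the change at 48 h was -0.28 (adjusted p = 0.609), and without library 1 of 48 h it was 1.39 (adjusted p = 0.0325).

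Gsta4 (ENSMUST00000034903, chr9:78191947-78209349, plus strand, 7 exons), a glutathione transferase that conjugates the lipid peroxidation product 4-hydroxynonenal, had scores of 1259, 969 and 869 at 0 h, 785 and 864 after 12 h, 600, 467 and 543 after 24 h, 517, 519 and 594 after 36 h and 471, 1157 and 2092 after 48 h. All libraries of 12 h, 24 h and 36 h lay below those of 0 h, and the 48 h libraries lay on both sides of them. The log2 change was -0.31 after 12 h (limma, Benjamini-Hochberg adjusted p = 0.555), -0.93 after 24 h (SE 0.38, adjusted p = 0.0426), -0.91 after 36 h (adjusted p = 0.045) and 0.04 after 48 h (adjusted p = 0.938). The calls at 24 h and 36 h were each lost in 12 of the 14 fits that left out a single library, with adjusted p-values up to 0.126 and 0.133, and held without library 1 or library 3 of 48 h. At 48 h the change was -0.47 without library 3 (adjusted p = 0.174) and 0.61 without library 1 (adjusted p = 0.0288). With all libraries, neither Slc7a11 nor Gsta4 passed the test at 48 h.

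Txnrd1 and Srxn1, which serve thioredoxin and peroxiredoxin, were higher at all 4 times. Txnrd1 (ENSMUST00000020484, chr10:82859179-82897712, plus strand, 14 exons) encodes the cytosolic thioredoxin reductase, a selenoprotein that uses NADPH. It had scores of 3724, 3347 and 3595 at 0 h, 7696 and 8254 after 12 h, 6053, 7185 and 8912 after 24 h, 6473, 6615 and 7032 after 36 h and 7489, 7185 and 9380 after 48 h. Its scores were apart from those of 0 h from 12 h on, and those of 12 h lay within the range of 48 h, with a log2 change of 1.17 at 12 h (SE 0.15, limma, Benjamini-Hochberg adjusted p = 2.31e-05) and 1.16 at 48 h (SE 0.13, adjusted p = 4.36e-06). The change of 0.92 at 36 h passed the adjusted p but not the 2-fold rule. From 12 h to 48 h the change was 0.00 on the log2 scale (95% confidence interval -0.32 to 0.32).

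Srxn1 encodes sulfiredoxin, which restores overoxidised peroxiredoxins. Its row is ENSMUST00000137751 (chr2:152105516-152109211, plus strand), which the annotation gives as a processed transcript of 446 bases and 2 exons with no coding sequence, whereas the rows of the other 9 genes are protein-coding transcripts. Its scores were 246, 321 and 249 at 0 h, 1481 and 1565 after 12 h, 943, 1146 and 1770 after 24 h, 641, 618 and 1048 after 36 h and 945, 1218 and 2461 after 48 h. Every cultured library was above the 0 h libraries, and the lowest cultured scores, 618 and 641, were found at 36 h. The log2 change from 0 h was 2.49 after 12 h (SE 0.36, 5.62-fold, limma, Benjamini-Hochberg adjusted p = 7.46e-05), 2.20 after 24 h, 1.46 after 36 h and 2.39 after 48 h (SE 0.32, 5.23-fold, adjusted p = 2.31e-05). The dip from 24 h to 36 h was -0.73 (adjusted p = 0.127) and the step from 36 h to 48 h was 0.92 (adjusted p = 0.246), and neither passed the test. With the replicate number as a block, the change from 24 h to 36 h had an adjusted p of 0.0401 and passed (limma), and Srxn1 was lower at 36 h in each of the 3 same-numbered pairs.

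Hmox1 and Nqo1, for haem breakdown and quinone reduction, were higher at all 4 times, and Hmox1 rose again after 12 h. Hmox1 (ENSMUST00000005548, chr8:75093621-75100589, plus strand, 5 exons) encodes haem oxygenase 1, which opens the haem ring to biliverdin, iron and carbon monoxide. Its scores were 190, 245 and 217 at 0 h, 571 and 604 after 12 h, 902, 1164 and 1902 after 24 h, 1574, 1619 and 1493 after 36 h and 2235, 2921 and 6934 after 48 h. It was above 0 h throughout, all 24 h libraries were above those of 12 h, and all 48 h libraries were above those of 36 h. The log2 change from 0 h was 1.44 after 12 h (SE 0.38, 2.71-fold, limma, Benjamini-Hochberg adjusted p = 0.00592), 2.54 after 24 h, 2.85 after 36 h and 4.04 after 48 h (SE 0.34, 16.4-fold, adjusted p = 3.09e-07). It was the gene of the 10 with the largest change at 24 h, 36 h and 48 h, while Srxn1 and Nqo1 had the largest at 12 h. Without library 3 of 48 h, which held the score of 6934, the change at 48 h was 3.56 (adjusted p = 1.83e-07).

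Nqo1 (ENSMUST00000003947, chr8:107388225-107403206, minus strand, 6 exons), the quinone reductase that is among the most used readouts of Nrf2, had scores of 270, 371 and 275 at 0 h, 1390 and 1444 after 12 h, 529, 922 and 1432 after 24 h, 693, 739 and 1237 after 36 h and 1205, 1286 and 1989 after 48 h. No cultured library reached down to the 0 h scores, and the 12 h scores lay within the range of 48 h. The log2 change from 0 h was 2.23 after 12 h (SE 0.36, 4.68-fold, limma, Benjamini-Hochberg adjusted p = 0.000179), 1.55 after 24 h and 2.26 after 48 h (SE 0.32, 4.81-fold, adjusted p = 3.52e-05), and at 36 h Nqo1 was 2.84-fold higher. The differences of -0.67 from 12 h to 24 h (adjusted p = 0.266) and 0.76 from 36 h to 48 h (adjusted p = 0.329) did not pass the test.

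**Figure D2:**
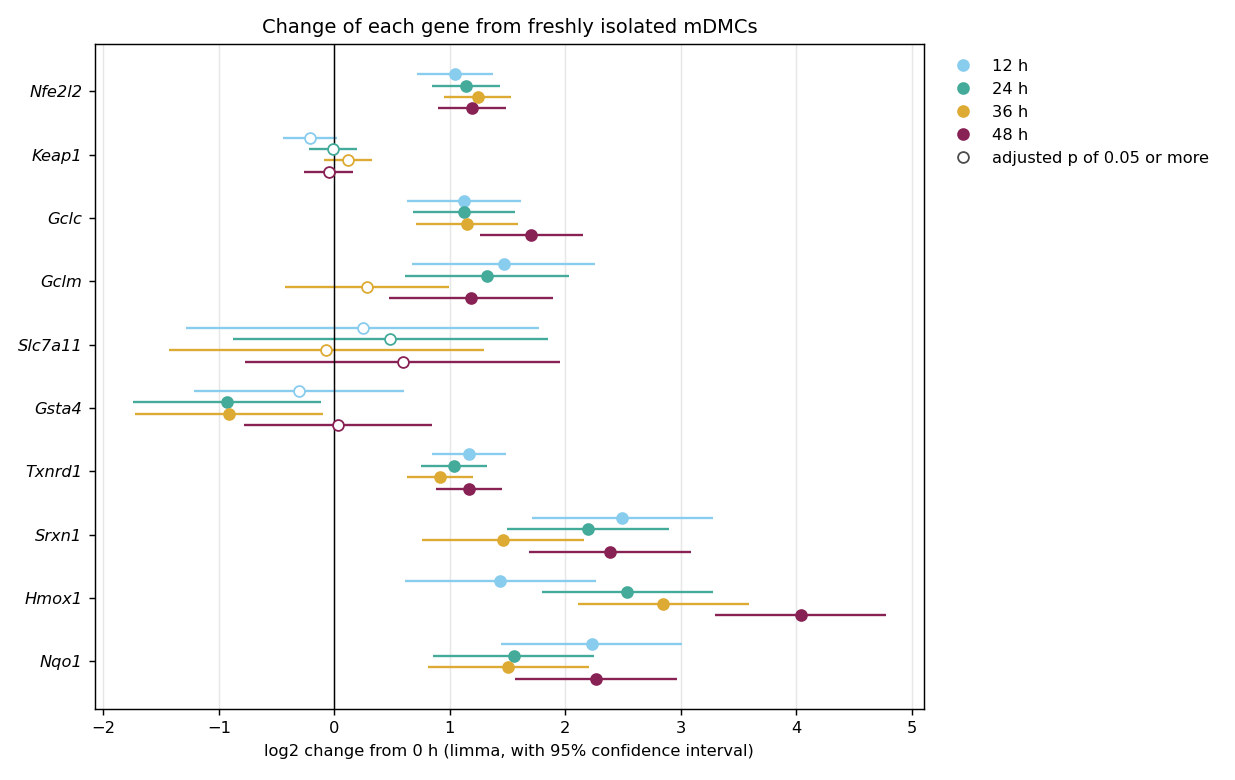
Log2 change of each gene from freshly isolated mDMCs at 12, 24, 36 and 48 h (x axis), with 95% confidence intervals from limma, where open points have an adjusted p of 0.05 or more. The intervals of 6 genes lie right of 0 at every time, that of Gclm includes 0 at 36 h, those of Keap1 and Slc7a11 include 0 at every time, and Hmox1 moves further right from 1.44 to 4.04.

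The steps between cultured time points were tested in the same fit. From 12 h to 24 h 0 of the 10 passed the test (limma), against 4.59% of all transcripts called higher and 3.67% lower. The nearest was Hmox1 with a log2 change of 1.10 (adjusted p = 0.0968), the 1 gene at an unadjusted p below 0.05, against 12.8% of all transcripts higher at that p, and the 1 called higher by the fold rule, against 1.8%. Its 24 h libraries were all above those of 12 h, as were those of 20.6% of all transcripts. From 24 h to 36 h Gclm was the 1 gene called, and it was lower, where 9.64% of all transcripts were called lower and 10% higher. At an unadjusted p below 0.05 Gclm and Srxn1 were lower at this step, against 17.9% of all transcripts. With the replicate number as a block, both passed the test as lower. That fit called 2495 of all transcripts in either direction, against 2375 without the block. From 36 h to 48 h 0 of the 10 passed, and of all transcripts 0% were higher and 0.0248% lower, which is 3 transcripts. At an unadjusted p below 0.05 the limma fit gave 6 of the 10 higher at this step, namely Gclc, Gclm, Gsta4, Srxn1, Hmox1 and Nqo1, against 6.4% of all transcripts. That count rested largely on library 3 of 48 h, since without it 1 of the 10, Hmox1, was left, against 3.58% of all transcripts, and the changes of Gclm, Gsta4, Srxn1 and Hmox1 went from 0.91, 0.95, 0.92 and 1.19 to 0.53, 0.44, 0.52 and 0.71. Without library 2 of 36 h it was 3, and without library 1 of 48 h it was 7, against 4.45% and 8.83% of all transcripts. Hmox1 had a log2 change of 1.19 at this step (adjusted p = 0.174) and was the 1 gene called higher by the fold rule, against 0.397% of all transcripts. All 48 h libraries lay above those of 36 h for Hmox1, Gclc and Txnrd1, and for 12.8% of all transcripts. Across the longer span from 12 h to 48 h, Hmox1 was the 1 gene called, higher by 2.60 on the log2 scale (6.06-fold, SE 0.38, adjusted p = 0.000213), where 21.2% of all transcripts were called higher and 21% lower and where 30.2% had all 48 h libraries above those of 12 h. The other 6 genes that had risen by 12 h had changes between -0.28 and 0.59 over that span. That Hmox1 differs from them in course was not tested as a difference between genes.

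The tissue, from the 1 library that had not been dissociated, was set beside the 3 libraries of 0 h with no test. Hmox1 scored 578 in the tissue and 190 to 245 at 0 h, which is 2.67-fold above the 0 h mean. Srxn1 scored 742 against 246 to 321, or 2.74-fold above. Slc7a11 scored 81 against 167 to 237, or 2.43-fold below. These were the 3 genes past 2-fold, where 2.56% of all transcripts were more than 2-fold higher and 1.22% more than 2-fold lower in the tissue. The tissue lay above the 0 h range for Nfe2l2 (961 against 532 to 628), Nqo1 (384 against 270 to 371) and Txnrd1 (3897 against 3347 to 3724), below it for Gclc (420 against 522 to 549), and within it for Keap1 (1733), Gclm (236) and Gsta4 (1234). For 29.7% of all transcripts the tissue lay above all 0 h libraries and for 32% below. The summed score of the macrophage markers, cells in which Hmox1 is highly expressed, was 3422 in the tissue and 1417 to 2217 at 0 h, that of the endothelial markers 13330 against 9228 to 10902, that of the erythroid markers 135979 against 98239 to 151173 and that of the epithelial markers 4902 against 1450 to 13358. Their part in the tissue values was not tested. With 1 library the tissue has no error, and dissociation and the choice of library cannot be told apart.

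Replicate libraries of the later time points were not alike for these genes, apart from libraries 1 and 2 of 36 h. Those were close for all 10 genes, for example at 128 and 141 for Slc7a11 and 693 and 739 for Nqo1. The libraries numbered 3 held the highest score of their time point for 8 of the 10 genes after 24 h, 9 after 36 h and 9 after 48 h. Over all transcripts that was so for 39.8% after 24 h, 41.4% after 36 h and 27.6% after 48 h. At 0 h the library numbered 3 was highest for 3 of the 10 genes, and for 34.1% of all transcripts. At 48 h, library 3 lay above the mean of the other 2 libraries by a median of 0.90 on the log2 scale over the 10 genes, and by -0.01 over all transcripts. More than 2-fold above were 5 of the 10 genes, against 0.869% of all transcripts, namely Slc7a11 (6.12-fold), Gsta4 (2.83-fold), Hmox1 (2.71-fold), Srxn1 (2.29-fold) and Gclm (2.17-fold). At the other end, Slc7a11 and 3 further genes were more than 2-fold lower in library 1 of 48 h than in the mean of the others, against 1.5% of all transcripts. The ratio of the highest to the lowest 48 h score was 10.1 for Slc7a11, 4.44 for Gsta4, 3.10 for Hmox1, 2.96 for Gclm, 2.60 for Srxn1, 1.77 for Gclc, 1.65 for Nqo1, 1.40 for Nfe2l2, 1.31 for Txnrd1 and 1.20 for Keap1. The 2 regulators and Txnrd1 were thus closest between replicates.

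**Figure D3:**
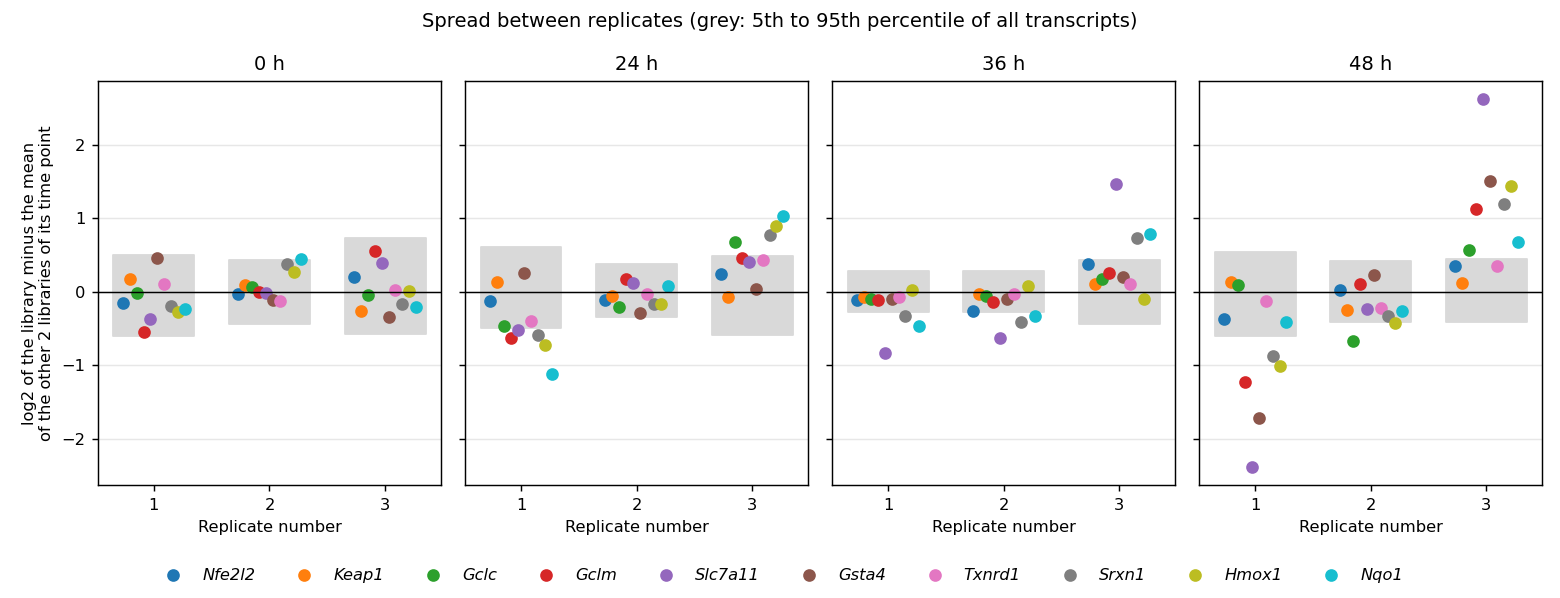
Log2 score of each library minus the mean of the other 2 libraries of its time point (y axis) by replicate number (x axis) at 0, 24, 36 and 48 h (panels), with colours by gene and grey boxes from the 5th to the 95th percentile of all transcripts. In library 3 of 48 h all 10 genes lie above 0 with Slc7a11 at 2.61, and in library 1 of 48 h Slc7a11 is the lowest.

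Library 3 of 48 h did not stand apart over the whole table, where its root mean square deviation from its group was 0.347 on the log2 scale, within the 0.28 to 0.445 of the other libraries. Library 3 was the highest of the 48 h libraries for 4 of 14 further genes of glutathione metabolism, 4 of 9 further glutathione transferases, 4 of 11 genes of thioredoxin and peroxiredoxin, 5 of 7 of NADPH supply, 5 of 10 of haem and iron, 7 of 12 of carbonyl and quinone reduction, 2 of 3 against superoxide and peroxide, 4 of 11 Nrf2 partners and 5 of 10 of the Atf4 response. Over these lists Trib3 (2.97-fold) and Chac1 (2.30-fold) were more than 2-fold above the other libraries. Library 3 was highest for 0 of 6 macrophage markers, whose sum was 528 there and up to 871 in the other 48 h libraries. It was highest for 2 of 8 endothelial, 1 of 7 epithelial and 4 of 8 dental mesenchyme markers. Pecam1 was 2.12-fold and Krt18 2.61-fold above the other 48 h libraries, and Epcam was at 0.435 of them. For 4 of 9 erythroid markers library 3 was highest. Their sum was 168 there and 52 and 60 in the other 48 h libraries, with Hba-a1 4.15-fold, Hbb-bs 4.13-fold and Hbb-bt 8.22-fold above them. The erythroid sum of library 3 was also the highest at 24 h (758 against 302 and 364) and was the lowest at 36 h (72 against 235 and 266). The part of such cells in the spread of the 10 genes was not tested. Without library 3 of 48 h the 10 genes gave the same 7 higher and 0 lower at 48 h, with log2 changes of 2.04 for Nqo1, 1.99 for Srxn1, 1.52 for Gclc and 0.81 for Gclm (limma, adjusted p for Gclm = 0.0279).

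Other genes of the pathway were taken from 9 lists and read from the same fit at 48 h against 0 h, beside 37.1% of all transcripts called higher and 34% lower. Their counts at 12 h stand beside 29.9% of all transcripts called higher and 28.3% lower at that time. Among 11 partners and turnover factors of Nrf2, 3 were higher, 2 lower and the median log2 change was 0.08, or -0.14 without library 1 of 0 h. Mafk, a small Maf partner, rose by 1.13 (limma, Benjamini-Hochberg adjusted p = 0.00576). Its scores were 410, 1179 and 1199 at 0 h, where library 1 held the 410, and 1895, 1750 and 1832 at 48 h. Btrc, the adaptor of a second ubiquitin ligase for Nrf2, fell by 0.84 (adjusted p = 4.05e-06) and Bach1, the repressor at AREs, fell by 0.62 (adjusted p = 0.000259). At 12 h this list gave 2 higher and 2 lower.

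The further genes of glutathione metabolism were mostly higher. Of 16 listed, 14 were tested, 11 were higher and 2 lower at 48 h, with a median of 0.90, and at 12 h 6 were higher and 2 lower. Chac1, which degrades glutathione, was listed at 3, 4 and 56 at 0 h and at 91, 141 and 262 at 48 h, a change of 3.85 (limma, Benjamini-Hochberg adjusted p = 0.000545), which was 5.08 without library 3 and 3.16 without library 1 of 0 h. Abcc4, an exporter of organic anions, rose by 2.64 (adjusted p = 1.53e-06). Oplah, which recycles 5-oxoproline to glutamate, fell by 2.53 (adjusted p = 4.07e-07). Gss, glutathione synthetase, was named after its values were seen and rose from 455 ± 41.4 to 1884 ± 80.2 (SD, n = 3), a change of 2.05 (adjusted p = 7.07e-09). The RNA scores of the genes for both steps of glutathione synthesis were thus called higher at 48 h, with Gclm overlapping 0 h.

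Of 18 listed glutathione transferases other than Gsta4, 9 were tested, 2 were higher and 4 lower at 48 h, and the median was -0.46. Gstt1 fell by 3.28 (limma, Benjamini-Hochberg adjusted p = 0.000129) and by 2.68 without library 1 of 48 h, Gstm2 fell by 1.94 (adjusted p = 1.33e-05) and Gsto1 rose by 2.04 (adjusted p = 1.79e-07). At 12 h the list gave 1 higher and 6 lower.

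The thioredoxin and peroxiredoxin list held 11 genes, of which 7 were higher and 2 lower at 48 h, with a median of 0.41, and 5 higher and 3 lower at 12 h. With each library left out in turn, 5 to 7 were higher and 2 to 3 lower at 48 h, with medians of 0.28 to 0.5. Txnrd2, the mitochondrial thioredoxin reductase, rose by 1.21 (limma, Benjamini-Hochberg adjusted p = 4.27e-05) and Prdx6 by 1.05 (adjusted p = 5.17e-07). Prdx2, a peroxiredoxin abundant in red cells, fell from between 8945 and 10090 to between 4576 and 4962, beside the fall of all 9 erythroid markers. The part of red cells in the fall of Prdx2 was not tested. Of 7 genes of NADPH supply, 3 were higher and 2 lower with a median of 0.09, which was -0.03 without library 3 of 48 h and -0.0026 without library 2 of 0 h. Me1, cytosolic malic enzyme, rose from 175 ± 53 to 1978 ± 640 (SD, n = 3), a change of 3.47 (adjusted p = 7.63e-08), while Tkt fell by 1.57 and Idh1 fell by 1.13. G6pdx, which opens the pentose phosphate pathway, had a log2 change of 0.09 (adjusted p = 0.608).

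Of 10 genes of haem and iron handling other than Hmox1, 3 were higher and 5 lower at 48 h and the median was -0.29. Tfrc, the transferrin receptor, rose by 3.43 (limma, Benjamini-Hochberg adjusted p = 6.89e-08). Slc40a1, the iron exporter ferroportin, fell by 2.76 (adjusted p = 1.96e-08) and Blvrb, a biliverdin reductase, fell by 1.54 (adjusted p = 0.000965). Ftl1, the ferritin light chain, rose by 1.14, and Fth1, the heavy chain, fell by 0.70. Red cells and macrophages are rich in several of these genes, and the summed scores of both marker lists were lower at 48 h, with 9 of 9 erythroid and 5 of 6 macrophage markers called lower, against 34% of all transcripts. The macrophage count was 4 to 5 with each library left out in turn, since Adgre1 (adjusted p = 0.0426) lost its call in some of these fits (adjusted p up to 0.17). The sixth macrophage marker, Lyz2, scored 113 to 192 at 0 h and 114 to 449 at 48 h, a log2 change of 0.55 (adjusted p = 0.289). The part of those cells in the list was not tested.

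Carbonyl and quinone reduction held the largest change among the genes of these lists. Of 14 listed genes, 12 were tested, 5 were higher and 4 lower, and the median was 0.26. Ephx1, microsomal epoxide hydrolase, rose from 32.7 ± 4.93 to 2267 ± 125 (SD, n = 3), a change of 6.08 (limma, Benjamini-Hochberg adjusted p = 1.50e-11). Akr1b8, an aldo-keto reductase, rose by 2.58 (adjusted p = 3.88e-05) and Esd by 1.68, while Aldh2, mitochondrial aldehyde dehydrogenase, fell by 1.65 (adjusted p = 5.96e-09). Of 3 tested genes against superoxide and hydrogen peroxide, 0 were higher and 2 lower (1 and 2 without library 1 of 48 h), with Cat down by 0.79 and Sod1 down by 0.44 on the log2 scale. The list of Atf4, the factor of the amino acid response that also regulates Slc7a11 and Chac1, holds Atf4 itself and target genes, and gave 8 higher and 0 lower of 10 and a median of 1.23, with Trib3 at 4.71, Ddit3 at 2.77 and Sesn2 at 2.64. At 12 h the Atf4 list gave 7 higher and 0 lower, and carbonyl and quinone reduction gave 4 higher and 5 lower. The list against superoxide and peroxide then gave 0 higher and 1 lower, NADPH supply 2 and 1, and haem and iron 2 and 6.

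**Figure D4:**
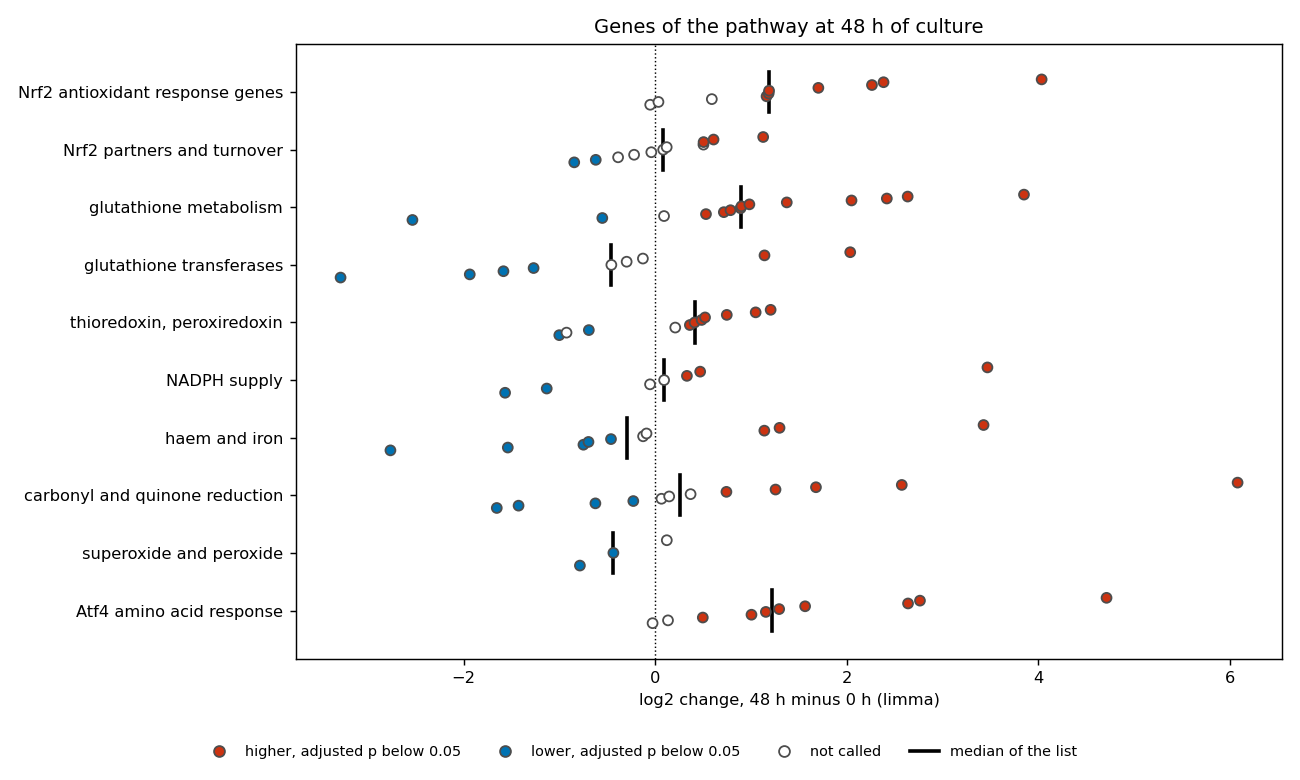
Log2 change from 0 h to 48 h (x axis) of every tested gene of the 10 Nrf2 antioxidant response genes and of 9 lists of the wider pathway (rows), with filled points at an adjusted p below 0.05 and a bar at the median of each list. The median is 1.19 for the 10 genes, 0.90 for glutathione metabolism, 1.23 for the Atf4 response and -0.46 for glutathione transferases.

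The genes whose scores ran most like each of the 10 were found by Pearson's r of log2(score + 1) over the 14 mDMC libraries, as a description, since the libraries share 5 time points and a common step from 0 h to culture. Nqo1 ran most like Srxn1 (r = 0.953) and Txnrd1 (r = 0.949), which are among the 10 themselves. Hmox1 ran most like Steap3 (r = 0.984), an iron reductase of endosomes, and Mmp19 (r = 0.978), a matrix metalloproteinase. Nfe2l2 was nearest to Areg (r = 0.979), the growth factor amphiregulin, and Fam177a (r = 0.974), Gclc to Ugdh (r = 0.958) and Slc6a15 (r = 0.952), and Txnrd1 to 1110008P14Rik (r = 0.983) and Utp4 (r = 0.975). Srxn1 was nearest to Ifi202b (r = 0.966) and Nlk (r = 0.963), and Gclm to Adrm1 (r = 0.942), a receptor of the proteasome, and Dpysl3 (r = 0.94). The values were lower for Gsta4, with Ptgr1 (r = 0.871) and Qars (r = 0.864), for Keap1, with Pigv (r = 0.839) and Pick1 (r = 0.835), and for Slc7a11, with Adrm1 (r = 0.784) and Gm5611 (r = 0.781).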

How the data were processed

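RNA-seq libraries of 14 mDMC samples and 1 tissue sample were used. Reads were trimmed by the authors, mapped with bowtie to Ensembl transcripts of mm10 (GRCm38) and quantified with RSEM. The submitters' processing notes give RSEM version 1.1.21, and the study's methods give another version. The deposited values are whole-number expression scores on a normalized scale. The table names them cpm, but its library totals of 21357605 to 21365980 exceed that unit, and the step that gave the libraries a common distribution is not given in the sources used here. The depth is unknown, and a change in the total RNA per cell cannot be seen. The table's name speaks of genes, while each row carries a transcript. Whether a score is the gene's total or that of the named transcript alone is not stated.

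Scores were analysed as log2(score + 1) with limma 3.58.1 (R 4.3.3), 1 mean per time point over the 14 mDMC libraries, and eBayes with an intensity trend. A transcript entered the test where 2 or more libraries gave it 1 ppm or more of their total score, which left 12079, and p-values were adjusted by Benjamini-Hochberg over all of them, so differences are on the log2(score + 1) scale and understate changes of low scores. The step was run on simulated data with independent noise in each library, which does not show how it handles libraries that vary together. The study used DESeq2 on counts, which this unit does not allow, and its fold rule was kept as an alternative. Groups were taken from the sample labels. Replicate numbers, whose meaning the labels do not give, were checked by the correlation of same-numbered libraries' deviations from their group means. This correlation was over 0.1 in every pair for 24 h with 36 h (0.165, 0.142 and 0.127) but for no other pair of times compared here. It was also over 0.1 in every pair for 24 h with 48 h (0.304, 0.201 and 0.318), times that were not compared. For the step from 24 h to 36 h the blocked adjusted p is given for Srxn1, the gene of the 10 whose call the block changed. All 10 genes are named. Of each list every gene was counted, and the 3 called genes with the largest change at 48 h are named with values, plus the largest in the other direction. Ftl1, Fth1, G6pdx and Gss were added after their values were seen. The 10 genes and the lists were chosen with earlier results of these data known. Promoter windows are from RefSeq, GRCm38.p6. Sums, correlations and plots used Python 3.11.15, numpy 2.4.6, pandas 2.3.3 and matplotlib 3.10.9. Alternatives were a pseudocount of 0.1, other filters, trimmed-mean scaling, a fit of the compared times alone, the replicate number as a block, the fold rule, each library left out in turn and, chosen after seeing the data, the libraries numbered 3 of 24 h, 36 h and 48 h left out together.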

Additional observations from a re-analysis of the deposited data

How the results depend on the processing

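Over 55 values of the 10 genes and 22 alternatives, 1140 of 1210 results kept their direction and side of the threshold, 35 lost and 16 gained a call, and 19 changed sign. The counts of genes higher at 12 h, 24 h and 36 h were the same in every fit that left out 1 library (7, 7 and 6), and so were all counts under a pseudocount of 0.1, the other filters, trimmed-mean scaling and the fit of the compared times alone. The fold rule gave 0 genes lower at 24 h and 0 at 36 h, 1 higher from 12 h to 24 h and 1 higher from 36 h to 48 h. Without the libraries numbered 3 of 24 h, 36 h and 48 h, 1 gene was higher and 1 lower from 12 h to 24 h, and 1 was lower from 12 h to 48 h. Leaving out each library in turn gave 0 to 1 genes lower at 12 h, 24 h and 36 h, 7 to 9 higher at 48 h, 0 to 1 higher from 12 h to 24 h, 0 to 1 lower from 24 h to 36 h, 0 to 3 higher from 36 h to 48 h and 1 to 2 higher from 12 h to 48 h. The counts of 9 and 3 came without library 1 of 48 h, that of 1 lower at 12 h, Keap1, without library 3 of 0 h, that of 1 higher from 12 h to 24 h without library 3 of 48 h, and that of 2 higher from 12 h to 48 h without library 1 or 3 of 24 h or library 1 or 2 of 48 h. Leaving out a 12 h library leaves 1, which is assumed to vary like the other groups.

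Sign changes were in genes with no call at that time. Gsta4 at 48 h was -0.00713 under trimmed-mean scaling and -0.47 without the libraries numbered 3, Slc7a11 at 48 h was -0.28 and Keap1 at 24 h 0.0115 without those. With each library left out in turn, Keap1 ranged from -0.10 to 0.0443 at 24 h and -0.14 to 0.0335 at 48 h, Slc7a11 from -0.56 to 0.21 at 36 h, from -0.28 to 1.39 at 48 h and from -0.21 to 1.45 between 36 h and 48 h, and Gsta4 from -0.47 to 0.61 at 48 h. The cause was not tested.

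Over all times the deviations of same-numbered libraries correlated at -0.25 to 0.318 (26 pairs, median 0.0671, 11 over 0.1). Those of libraries with other numbers correlated at -0.477 to 0.477 (52 pairs, median -0.0377, 6 over 0.1). Of 14 libraries, 11 correlated best with their own number. Library 3 of 0 h correlated at 0.159, 0.126 and 0.11 with the libraries numbered 3 of 24 h, 36 h and 48 h. Some pairing by number can therefore not be excluded, and the main fit does not model it. With the replicate block, 2 genes in place of 1, Gclm and Srxn1, were lower from 24 h to 36 h, and the counts of genes at the other steps were the same. Since depth is unknown, low scores such as those of Slc7a11 and Gclm carry a counting error that could not be set.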
